A study of Mus musculus with 12 samples.

Results

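The response of control mouse embryonic fibroblasts (MEFs) to dexamethasone (Dex), a synthetic glucocorticoid, was described against ethanol (EtOH), its vehicle, across all genes that could be measured. A probe was taken when its detection p-value was under 0.01, here called above background, on at least 3 of the 6 arrays of these cells, as 11431 of the 25697 probes on each bead array were. They gave 8065 genes, each read from 1 probe. The cells were primary MEFs, connective-tissue cells grown from E15.5 embryos of the C57BL6/J strain, and carried 1 intact copy of each cryptochrome gene (Cry1+/-Cry2+/-), although the series' own design text calls them wild type. They had received 1 µM Dex or EtOH for 16 hours, with 3 biological replicates per treatment. MEFs without either cryptochrome (Cry1-/-Cry2-/-, called dKO) had received the same 2 treatments on 3 arrays each. These 6 further arrays entered the common estimate of the spread and 1 comparison of the responses. The labels call the replicates biological but do not say whether each came from an embryo, a pool or a culture of its own, so p-values measure the spread between these arrays. All cells of this comparison lacked 1 copy of both cryptochromes, and cells with 2 copies were not analysed here.

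Glucocorticoids act through the glucocorticoid receptor (Nr3c1), which waits in the cytoplasm with the chaperone Hsp90 and immunophilins, enters the nucleus once it binds hormone and binds DNA as a dimer at an inverted repeat. At such elements it recruits coactivators and raises transcription, and elsewhere it restrains inflammatory genes that NF-kB and AP-1 drive. In fibroblasts glucocorticoids are known for dampening inflammation and matrix turnover and for setting circadian clocks. Cryptochromes are repressors of that clock and are known to bind the receptor.

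Between 43.4% and 44.6% of probes were above background on each of these arrays, and median raw signals lay between 199 and 216. Levels are log2 intensities after normalization, and a change is the mean of the Dex arrays less the mean of the EtOH arrays. Its standard error (SE) comes from the common estimate of the spread over all 12 arrays. It is thus the same for the control and dKO changes of a gene. The first principal component of the 6 arrays held 67.2% of the variance and parted the treatments. The second held 18.7% and set Dex replicate 3, at -21.6, apart from Dex replicates 1 and 2, at 16.5 and 9.71. Dex replicate 3 also lay furthest from its group's means, by 0.20 on average, against 0.15 and 0.12 for Dex replicates 1 and 2 and 0.09 to 0.10 for the EtOH arrays. The total of calls, the element shares and the list counts that moved by more than 1 gene are also given without that array.

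Dex changed many of the measured genes. Of the 8065 genes, 1719 were called, that is had an adjusted p under 0.05, which is 21.3%. They comprised 740 genes that were higher in Dex, 9.18% of all, and 979 that were lower, 12.1% of all. Without Dex replicate 3 the counts were 685 higher and 808 lower, and 1341 genes were called with and without it. The rises reached further than the falls. At least 2-fold changes were found for 208 called rises and 201 called falls. At least 4-fold changes were found for 46 rises and 15 falls, and at least 8-fold changes for 19 rises and 0 falls. Counts by fold, here and below, are of fitted changes and include genes at background in 1 group, for which no fold was measured. Ppl and Slc10a6 count as rises of at least 8-fold, but their lower bounds, explained below, are 3.55-fold and 4.96-fold. Ambp counts as at least 4-fold lower, with a bound of 3.69-fold. The median size was 0.67 among called rises and -0.64 among called falls, against a median of -0.04 over all genes. The smallest called change was 0.25. The Dex and EtOH values did not overlap for 38.8% of all genes and for 1708 of the called ones. When each array was scaled to its median instead of quantile normalized, the calls split into 480 higher and 1344 lower, and the median of all genes moved to -0.16. The balance between rises and falls thus rests on the scaling.

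**Figure D1:**
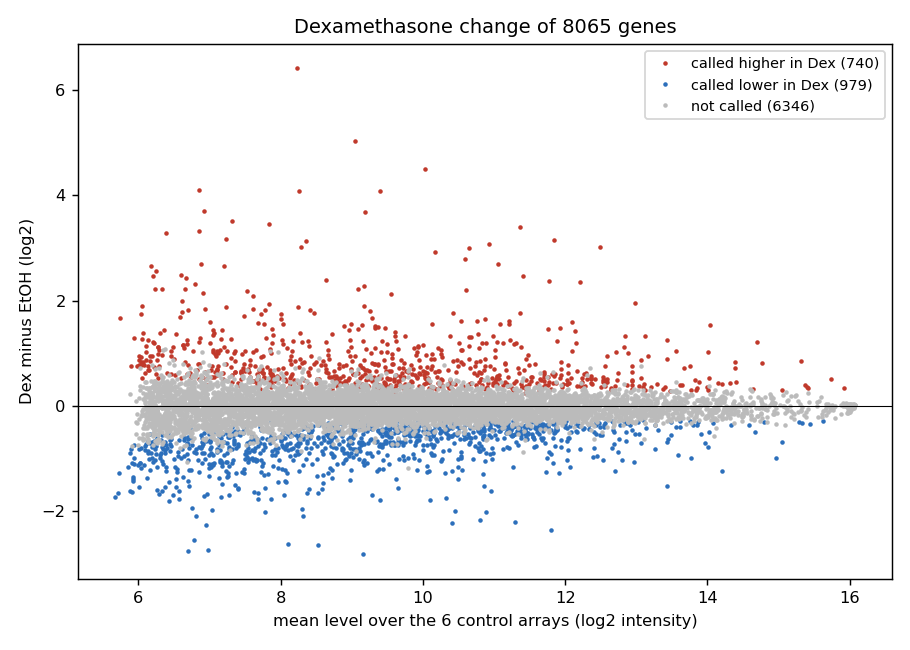
Change (Dex minus EtOH, log2) of the 8065 genes, vertical axis, against the mean level over the 6 control arrays (log2 intensity), horizontal axis, with 1 point per gene. Red points are the 740 genes called higher in Dex, blue points the 979 called lower and grey points those not called. Calls occur at every level, and only rises go beyond 3 on the log2 scale.

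Calls were spread over the range of levels. Over 4 equal bins of genes by level, lowest first, 22.9%, 22.8%, 21.5% and 18.1% were called, while the median SE was 0.20, 0.15, 0.12 and 0.11 in the same order. At the low end some genes were above background in a single group, so no fold was measured. The EtOH arrays were all at background and the Dex arrays all above it for 76 genes, 65 of which were called higher. The opposite held for 83 genes, of which 70 were called lower. The genes of both sets passed the filter only through the group where they were high. Their direction was thus given by the filter if they differed. For such genes a fold is given as a lower bound, with each array at background raised to the lowest value that was above background on that array. The bound holds for the background correction and scaling used here. Under at least 1 alternative the log2 change was smaller than the bound for every such gene among the 15 largest changes in each direction. It was 4.08 for Lcn2, 2.04 for Slc45a3 and -1.27 for Clec7a, against bounds of 5.24, 3.36 and -2.17. Among the 7348 genes above background on all 6 arrays, 644 rose and 851 fell.

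The receptor's own machinery was measured only in part. Nr3c1 was above background on 1 of the 6 arrays and is below the filter, as is Hsd11b1, the enzyme that regenerates active glucocorticoid, whose 4 probes were above background on 0 to 2 arrays. Of 12 measured genes for ligand metabolism and cochaperones, 4 rose and 1 fell, or 2 and 1 with median scaling and 4 and 0 without Dex replicate 3. Fkbp5 encodes the immunophilin that lowers the receptor's affinity for hormone, and its level was 12.49, 12.35 and 12 on the Dex arrays, against 7.73, 7.84 and 7.75 on the EtOH arrays. The groups lay far apart, and the change was 4.504 ± 0.15 (SE; adjusted p = 3.26e-09). H6pd, which supplies Hsd11b1 with cofactor, changed by 1.19 ± 0.17 (adjusted p = 3.37e-04). The cochaperones Hsph1 and Stip1 rose by 0.41 and 0.42, calls that were lost with median scaling, and Fkbp4, the immunophilin that Fkbp5 displaces, changed by -0.54 (adjusted p = 0.0259). Hsp90aa1, which encodes Hsp90 itself, was not called at 0.29. Among 6 measured coregulators only the deacetylase Sirt1 was called, with a change of 0.57. The 41.7% called for ligand metabolism and cochaperones and the 16.7% for coregulators stood against 21.3% of all genes.

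Genes that glucocorticoids are known to induce in several tissues mostly rose. Of 42 listed genes 33 were measured, and 26 rose, 2 fell and 5 were not called, with a median change of 1.36. The 84.8% called stood against 21.3% of all genes, and 9.18% of all genes rose. The list was written with earlier results of these data known, so its count is a description and no independent support. Of the 33, 3 passed the filter only through the Dex arrays (Lcn2, Fam107a and Glul), so they had to be higher there if they differed. Tsc22d3 (GILZ), an inhibitor of NF-kB and AP-1, stood at 13.58, 13.30 and 13.30 on the Dex arrays, against 11.01, 11.04 and 11.04 on the EtOH arrays, and the groups did not overlap. Its change was 2.36 ± 0.11 (adjusted p = 3.71e-08). Sgk1, a kinase that regulates sodium transport, stood at 13.997, 13.97 and 13.93 on the Dex arrays, against 12.04, 11.82 and 12.14 on the EtOH arrays, a change of 1.96 ± 0.10 (adjusted p = 1.06e-07). The clock gene Per1 stood at 9.54, 9.39 and 9.13 on the Dex arrays, against 7.70, 7.27 and 7.81 on the EtOH arrays, and it changed by 1.76 ± 0.16 (adjusted p = 1.06e-05). Each of the 3 genes was higher on every Dex array than on any EtOH array.

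Further members were the feedback regulators of signalling. Dusp1, a phosphatase that turns off MAP kinases, rose by 0.999 ± 0.11 (adjusted p = 5.11e-05), and Errfi1, a feedback inhibitor of EGF receptors, by 3.16 ± 0.14 (adjusted p = 3.71e-08). Nfkbia, the inhibitor that holds NF-kB in the cytoplasm, stood at 11.39, 11.06 and 10.82 on the Dex arrays, against 9.92, 10.02 and 10.12 on the EtOH arrays, and rose by 1.07 ± 0.13 (adjusted p = 1.15e-04). The transcription factor Klf9 rose by 1.24 ± 0.14 (adjusted p = 7.13e-05). Pdk4, which closes pyruvate oxidation, rose by 2.69, Zfp36, which destabilizes cytokine mRNAs, by 0.99, and Anxa1, an anti-inflammatory annexin, by 1.25. The exceptions were Angptl4, an inhibitor of lipoprotein lipase, at -1.38 ± 0.17 (adjusted p = 1.36e-04) and Cdc42ep3 at -0.51. Cdkn1a, Bcl6, Arrdc2, Fbxo32 and Foxo1 were not called, with changes between -0.34 and 0.19.

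The 15 largest rises, taken among called genes whose groups did not overlap, led this response. Lcn2, a siderophore-binding acute phase protein, stood at 11.73, 11.25 and 11.32 on the Dex arrays, against 5.07, 4.87 and 5.14 on the EtOH arrays. No EtOH array was above background, so Lcn2 was at least 37.7-fold higher in Dex, and the adjusted p was 6.37e-11. Sult1a1, a phenol sulfotransferase, stood at 11.54, 11.63 and 11.54 on the Dex arrays, against 6.49, 6.54 and 6.56 on the EtOH arrays. The replicates differed by under 0.1 within each group, and the change was 5.04 ± 0.08 (adjusted p = 3.01e-12). Rgcc, a regulator of the cell cycle, stood at 10.27, 10.44 and 10.17 on the Dex arrays, against 6.05, 6.38 and 6.19 on the EtOH arrays, and 1 of its EtOH arrays was above background. Dpep1, a membrane dipeptidase, stood at 11.44, 11.36 and 11.52 on the Dex arrays, against 7.04, 7.86 and 7.16 on the EtOH arrays. The groups of both genes lay about 4 log2 units apart, with changes of 4.09 ± 0.20 for Rgcc and 4.09 ± 0.18 for Dpep1. Mt2, a zinc-binding metallothionein, stood at 11.25, 10.63 and 11.21 on the Dex arrays, against 6.91, 7.44 and 7.71 on the EtOH arrays, a change of 3.68 ± 0.24 (adjusted p = 9.45e-07).

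Several of these rises began at background. Spink8, a Kazal-type protease inhibitor, stood at 8.75, 8.93 and 9.03 on the Dex arrays, against 4.76, 4.86 and 4.80 on the EtOH arrays, which is at least 6.52-fold higher in Dex (adjusted p = 6.62e-10). Fam107a, an actin-associated stress-response gene, was at least 5.93-fold higher and Lbp, the lipopolysaccharide-binding protein, at least 7.34-fold. The transporters Slc45a3 and Slc10a6, the second a carrier of sulfated steroids, were at least 10.3-fold and 4.96-fold higher. Ppl, the desmosomal plakin periplakin, was at least 3.55-fold higher and Jaml, an adhesion molecule of leukocytes, at least 6.12-fold. All 7 genes had 0 of 3 EtOH arrays and 3 of 3 Dex arrays above background. They passed the filter only through the Dex arrays, so they had to be higher there if they differed. Serpina3n, a secreted serine protease inhibitor, stood at 13.34, 13.07 and 12.79 on the Dex arrays, against 9.45, 9.78 and 9.77 on the EtOH arrays, and changed by 3.39 ± 0.15 (adjusted p = 3.71e-08).

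**Figure D2:**
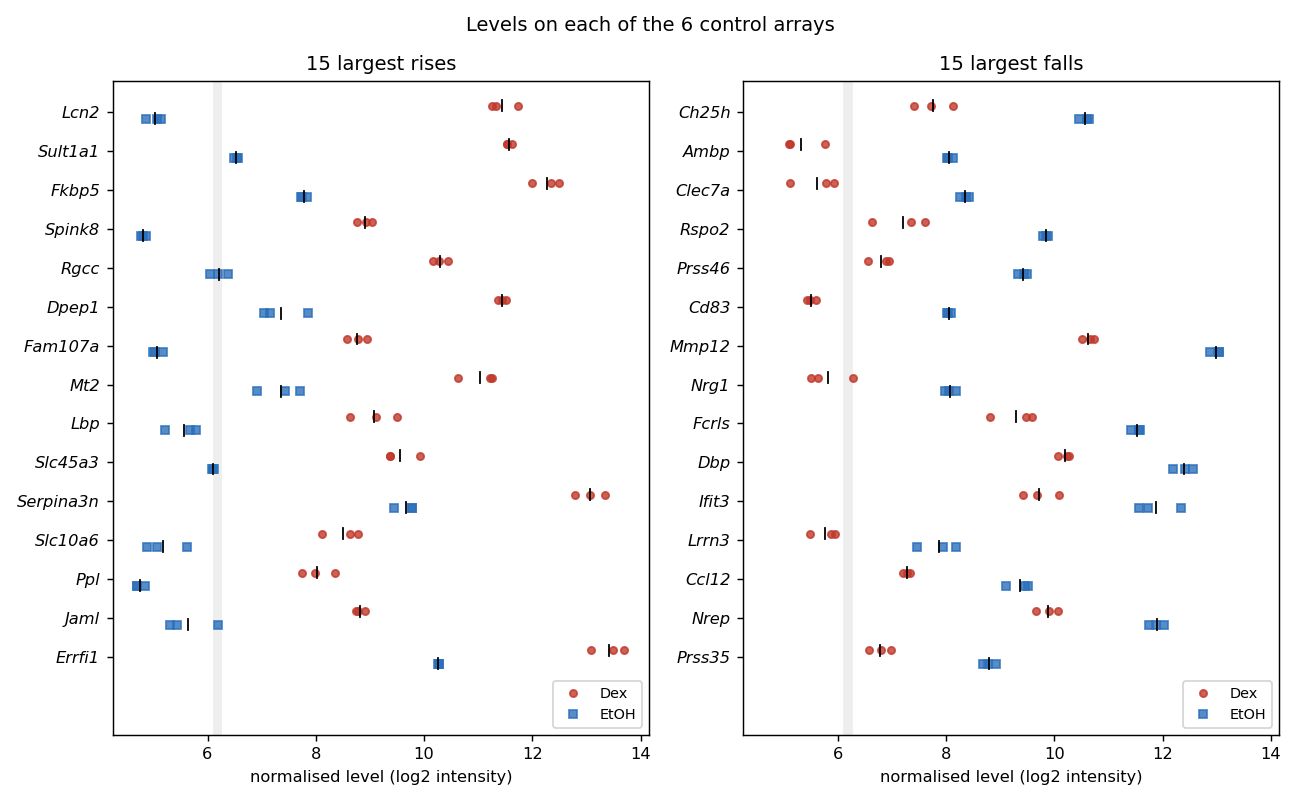
Normalised level (log2 intensity, horizontal axis) of the 15 largest rises, left, and the 15 largest falls, right, on each of the 6 control arrays. Red circles are the 3 Dex arrays, blue squares the 3 EtOH arrays, black ticks the group means, and the grey band spans the lowest values above background, 6.12 to 6.25. The genes were chosen so that their groups do not overlap. Lcn2, Spink8 and Ppl lie wholly left of the band on the EtOH arrays.

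Promoters were searched for the receptor's element where RefSeq gave one, from 250 bases before to 50 after a transcript start (GRCm38.p6), for 6607 of the 8065 genes. The element was taken as 13 bases, an inverted repeat of GNACA and TGTNC around any 3 bases, where N is any base. It is its own reverse complement, so both strands are covered. It was present for 9 of 158 genes that rose at least 2-fold, 5.7%, and for 11 of all 593 called rises, 1.85%. Among called falls it was present for 5 of 749, 0.668%, and among falls of at least 2-fold for 0 of 138, which allows a share of up to 2.17% by counting error alone. Of all 6607 tested genes 28 held it, 0.424%, as did 156 of the 32851 promoter windows of the table, 0.475%. Without Dex replicate 3 the share was 9 of 161 among rises of at least 2-fold and 0 of 104 among falls of that size, and with median scaling 9 of 130 and 1 of 187. These shares are descriptions, since the windows of a gene overlap and most receptor sites are known to lie farther from starts.

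The inner 9 bases of the element, ACANNNTGT, lie within every 13-base match and were commoner in both directions. They were present for 15.2% of rises and 10.1% of falls of at least 2-fold, against 4.98% of all tested genes and 6.85% of all windows. The AP-1 element TGANTCA was present for 12% of such rises and 11.6% of such falls, against 6.61% of tested genes and 7.81% of all windows. A loose form of the NF-kB element, GGG and CC around any 5 bases and searched on both strands, was present for 67.7% of such rises and 64.5% of such falls, against 72.3% of tested genes and 50.8% of all windows. With 5 free bases, a match to it does not show an NF-kB site. A gene was counted when any of its windows matched, wherever the element lay, while the share of all windows counts each window once.

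**Figure D3:**
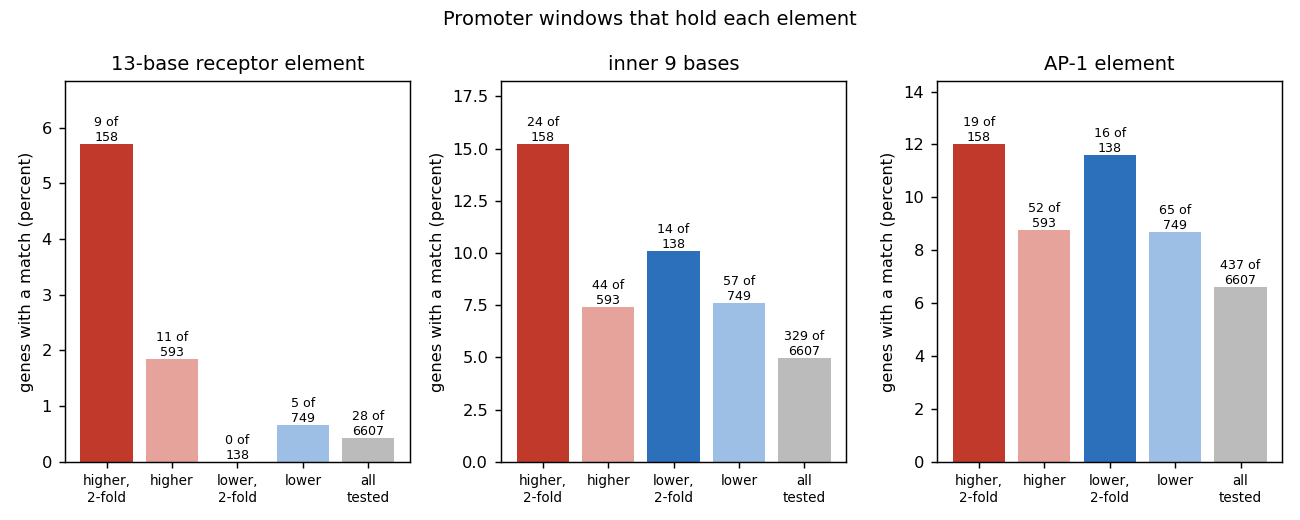
Share of genes whose promoter window holds an element (percent, vertical axes, each with a scale of its own) among called rises and falls, those of at least 2-fold, and all tested genes, with counts above the bars. The 13-base element is at 5.7% among rises of at least 2-fold and 0.424% among all tested genes, while the AP-1 element is at 12% and 11.6% in rises and falls of that size.

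The promoters that hold the 13-base element among the largest changes and the genes named throughout are shown so that the sequence can be read beside the measured rise. They are printed on the strand of the gene, 5′ to 3′, with the element in capitals, and come from RefSeq on GRCm38.p6. That of Slc10a6 (chr5:103629354-103629653, minus strand) has the element beginning 163 bases before the start, that of Serpina3n (chr12:104406458-104406757, plus strand) 78 bases before it, that of Fam107a (chr14:8309730-8310029, minus strand), 1 of 3 windows and near-identical to another, 118 bases before it and that of Sgk1 (chr10:21993640-21993939, plus strand), 1 of 6 windows of this gene, 188 bases before it. Tinagl1 (chr4:130174753-130175052, minus strand), a matrix protein whose response differed between the genotypes, has it 147 bases before the start.
Slc10a6: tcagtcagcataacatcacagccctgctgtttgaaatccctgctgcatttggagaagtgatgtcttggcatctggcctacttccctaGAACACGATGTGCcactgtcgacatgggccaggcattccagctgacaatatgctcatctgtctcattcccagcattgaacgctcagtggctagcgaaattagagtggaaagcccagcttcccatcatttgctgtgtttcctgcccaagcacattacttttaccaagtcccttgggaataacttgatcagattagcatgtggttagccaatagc
Serpina3n: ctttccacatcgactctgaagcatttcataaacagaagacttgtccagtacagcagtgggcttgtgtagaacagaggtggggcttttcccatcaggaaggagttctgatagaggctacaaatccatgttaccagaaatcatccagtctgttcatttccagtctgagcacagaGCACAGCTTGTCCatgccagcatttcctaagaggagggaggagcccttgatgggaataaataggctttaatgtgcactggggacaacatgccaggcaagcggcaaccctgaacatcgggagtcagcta
Fam107a: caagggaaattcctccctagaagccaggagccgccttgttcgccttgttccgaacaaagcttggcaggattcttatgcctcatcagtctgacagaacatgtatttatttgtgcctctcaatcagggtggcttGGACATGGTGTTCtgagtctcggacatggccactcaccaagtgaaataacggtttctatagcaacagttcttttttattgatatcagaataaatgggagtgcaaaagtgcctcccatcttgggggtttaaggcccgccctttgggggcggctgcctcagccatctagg
Sgk1: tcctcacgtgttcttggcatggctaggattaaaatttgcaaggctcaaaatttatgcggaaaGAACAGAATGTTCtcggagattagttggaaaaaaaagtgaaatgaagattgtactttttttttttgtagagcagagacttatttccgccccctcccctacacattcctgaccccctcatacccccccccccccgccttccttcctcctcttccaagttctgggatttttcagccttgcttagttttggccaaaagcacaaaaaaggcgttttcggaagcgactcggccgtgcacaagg
Tinagl1: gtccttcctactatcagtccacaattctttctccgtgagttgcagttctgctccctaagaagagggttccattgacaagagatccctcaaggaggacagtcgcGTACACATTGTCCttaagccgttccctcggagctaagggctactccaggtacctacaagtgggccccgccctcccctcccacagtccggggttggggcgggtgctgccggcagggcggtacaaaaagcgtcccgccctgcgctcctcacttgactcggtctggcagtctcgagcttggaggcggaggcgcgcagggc

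Slc10a6, whose element is printed above, stood at 8.78, 8.64 and 8.12 on the Dex arrays, against 4.88, 5.61 and 5.06 on the EtOH arrays, and Fam107a at 8.78, 8.58 and 8.95 on the Dex arrays, against 4.99, 5.02 and 5.18 on the EtOH arrays. Both were at background on all EtOH arrays and above it on all Dex arrays. The other called rises with the element, named because of this match after their values were seen, were Amy1, which was at least 2.47-fold higher, Car14 at 2.15, Map3k6 at 1.82, Suox at 1.47, Txnip at 0.54 and Mt1 at 0.33. Amy1 passed the filter only through the Dex arrays, so it had to be higher there if it differed. Mt1, the neighbour of Mt2 and likewise a metallothionein, had means of 16.1 on the Dex arrays and 15.8 on the EtOH arrays, among the highest levels of the table. The 5 called falls with the element were Cenps, Cpxm1, Ndc1, Ptpdc1 and Zgpat, with changes between -0.94 and -0.29. Fkbp5, Lcn2, Sult1a1, Tsc22d3 and Per1 held no such match in the windows given.

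The 15 largest falls, chosen by the same rule, were smaller than the largest rises. Ch25h, which makes 25-hydroxycholesterol, an antiviral oxysterol, stood at 7.40, 7.72 and 8.14 on the Dex arrays, against 10.61, 10.45 and 10.65 on the EtOH arrays, a change of -2.82 ± 0.16 (adjusted p = 2.64e-07). Rspo2, a secreted amplifier of Wnt signalling, stood at 7.36, 6.64 and 7.60 on the Dex arrays, against 9.79, 9.88 and 9.85 on the EtOH arrays, a change of -2.64 ± 0.21 (adjusted p = 4.44e-06). Both had every Dex array below every EtOH array, which the choice of genes required. Mmp12, the elastase of macrophages, stood at 10.504, 10.65 and 10.74 on the Dex arrays, against 13.03, 12.87 and 13.05 on the EtOH arrays, and changed by -2.35 ± 0.12 (adjusted p = 9.50e-08). Dbp, a transcription factor under direct clock control, stood at 10.24, 10.27 and 10.07 on the Dex arrays, against 12.19, 12.56 and 12.41 on the EtOH arrays, and changed by -2.19 ± 0.11 (adjusted p = 8.06e-08). Ifit3, which interferon induces, stood at 10.09, 9.41 and 9.67 on the Dex arrays, against 11.57, 12.34 and 11.73 on the EtOH arrays. Its change was -2.15 ± 0.21 (adjusted p = 2.72e-05).

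Some genes fell to background in Dex. Clec7a, the myeloid receptor for beta-glucan, stood at 5.12, 5.79 and 5.93 on the Dex arrays, against 8.36, 8.43 and 8.26 on the EtOH arrays, which is at least 4.5-fold lower in Dex (adjusted p = 1.02e-06). Ambp, the precursor of alpha-1-microglobulin, was at least 3.69-fold lower, Cd83, a surface protein of activated antigen-presenting cells, at least 3.65-fold and Lrrn3, a leucine-rich repeat membrane protein, at least 3.21-fold. Clec7a, Ambp, Cd83 and Lrrn3 passed the filter only through the EtOH arrays, so they had to be lower in Dex if they differed. Nrg1, a ligand of ERBB receptors, was above background on 1 of 3 Dex arrays and changed by -2.27 ± 0.20 (adjusted p = 9.05e-06). The serine protease genes Prss46 and Prss35 changed by -2.62 and -2.01, the macrophage gene Fcrls by -2.23, the chemokine Ccl12 by -2.08 and Nrep by -2.02.

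Inflammatory genes split by class. Acute phase proteins, which liver is known to secrete in inflammation, rose in 7 of 10 measured genes of 25 listed, none fell, and the median was 2.74, or 2.10 with the 3 genes that were at background in EtOH at their bounds. Beside Lcn2, Lbp and Serpina3n they included Orm1, a plasma glycoprotein that was at least 2.51-fold higher, Saa3, a serum amyloid A, at 3.02 ± 0.25, Hp, which binds haemoglobin, at 2.93 ± 0.27, and Cp, which carries copper, at 1.06 ± 0.19 (adjusted p = 0.00168). Lcn2, Lbp and Orm1 passed the filter only through the Dex arrays, so they had to be higher there if they differed. Ptx3, Itih2 and Trf were not called, and the 70% called stood against 21.3% of all genes.

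Chemokines fell in 16 of 19 measured genes and rose in none, with a median of -0.87. Ccl12, which draws monocytes, stood at 7.34, 7.28 and 7.21 on the Dex arrays, against 9.45, 9.52 and 9.11 on the EtOH arrays. Ccl4 changed by -1.22 ± 0.11 and Cxcl12, the stromal ligand of Cxcr4, by -1.52 ± 0.15 (adjusted p = 3.48e-05). Ccl2, the main monocyte attractant, changed by -1.24, Ccl7 by -0.87 and Ccl11, the eotaxin, by -0.90. The neutrophil attractant Cxcl1 was not called at 0.40. Interferon-stimulated genes fell in 18 of 22 measured genes and rose in none, with a median of -0.90. Oasl2 changed by -1.77 ± 0.20, Usp18, which trims ISG15 from proteins, by -1.78 ± 0.23 (adjusted p = 1.89e-04), Isg15 by -1.69 and the transcription factor Irf1 by -1.04 ± 0.12 (adjusted p = 1.16e-04). Stat2, Bst2, Ifi35 and Irgm1 were not called. In all, 84.2% of chemokines and 81.8% of interferon-stimulated genes were called, against 21.3% of all genes.

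Antigen presentation fell in 6 of 13 measured genes and rose in none. The fallen genes were 3 immunoproteasome subunits (Psmb8 at -1.07, Psmb9 at -0.85 and Psmb10 at -0.52), the proteasome activator Psme1 at -0.72 and the class I molecules H2-D1 and H2-K1 at -0.59 and -0.64. With median scaling 9 of them fell. Of 17 NF-kB cytokines and feedback inhibitors 2 rose and 3 fell. Tnf and Il6, cytokines that were at background on all Dex arrays, were at least 1.28-fold and 1.29-fold lower. Both passed the filter only through the EtOH arrays, so they had to be lower in Dex if they differed. Icam1, an adhesion molecule for leukocytes, changed by -0.997 ± 0.14 (adjusted p = 2.97e-04). Nfkbia rose, as above, and Csf1, a growth factor of macrophages, rose by 0.61. Tnfaip3, another feedback inhibitor, changed by 0.80 without being called. Of 9 complement genes 3 rose, the C1q chains C1qa, C1qb and C1qc at 0.82, 0.53 and 0.39, and C2 fell. The counts were 3 and 0 without Dex replicate 3 and 2 and 1 with median scaling. The calls of C1qb, C1qc and C2 were each lost under at least 1 alternative, with adjusted p-values of up to 0.142, 0.166 and 0.074. Against 21.3% of all genes, 46.2% of antigen presentation, 29.4% of NF-kB and 44.4% of complement genes were called.

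Genes of macrophages were present in these cultures. Of 18 macrophage markers 13 were measured, of which 4 rose and 7 fell, and Ptprc and Itgam were above background on 2 arrays and 0 arrays. Their summed linear level was 142572 to 151675 on the Dex arrays, against 162128 to 173711 on the EtOH arrays, so the groups did not overlap. Adgre1, a defining surface protein of mouse macrophages, changed by -0.66 ± 0.11 (adjusted p = 0.00157), Aif1 by -1.32 and Cd14 by -0.59, while Mrc1, the mannose receptor, rose by 0.90. The other risen markers were the C1q chains C1qa, C1qb and C1qc, given above with the complement genes. Lyz2 and Ctss were not called, at -0.24 and -0.41. In these bulk samples fewer cells of a type and less RNA per cell cannot be told apart. The part of macrophages in the falls of chemokines, interferon-stimulated genes, Mmp12, Clec7a and Fcrls was not tested. The 11 measured fibroblast markers had summed levels of 71264 to 81387 on the Dex arrays, against 75215 to 80545 on the EtOH arrays, which overlap. Of the 11, 1 rose (Pdgfra) and 3 fell (Dcn, Lum and Col3a1), and the collagen genes Col1a1 and Col1a2 were not called, at -0.14 and -0.19. The called shares were 84.6% of macrophage and 36.4% of fibroblast markers, against 21.3% of all genes.

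The remaining marker lists were thinly measured. No epithelial marker was above the filter, and of 7 mesothelial markers 4 were measured and 3 rose (Wt1, Upk1b and Upk3b, by 0.61, 0.68 and 0.61), with summed levels of 2056 to 2390 in Dex, against 1466 to 1513 in EtOH. The 75% called stood against 21.3% of all genes, but without Dex replicate 3 only 1 of these 3 was called. The endothelial, skeletal muscle, neural and adipocyte lists had 1 or 2 measured genes each. The 3 measured Y-linked genes were not called, and their summed level spread over 1540 to 2912 on the Dex arrays, against 2495 to 2642 on the EtOH arrays.

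The clock list, the transcriptional oscillator and its outputs, held 16 measured genes, of which 4 rose and 5 fell. The 56.2% called stood against 21.3% of all genes. Per1 rose, as above, and so did Nfil3, a repressor at D-box elements, at 1.56 ± 0.11 (adjusted p = 1.26e-06), together with the activators Arntl and Clock at 0.85 and 0.54. The fallen genes were Dbp and Tef, activators at the same D-box elements, at -2.19 and -0.92, the nuclear repressors Nr1d1 and Nr1d2 at -1.26 and -1.63, and Bhlhe40 at -0.50. Nr1d2 stood at 6.76, 6.87 and 6.80 on the Dex arrays, against 8.33, 8.44 and 8.55 on the EtOH arrays, and the groups lay apart. Per2 was not called, at -0.24 ± 0.18 with overlapping groups. Cry2 stood at 6.79, 6.70 and 6.44 on the Dex arrays, against 6.09, 5.90 and 6.49 on the EtOH arrays, and was not called (adjusted p = 0.116). Only 1 of its EtOH arrays was above background, and the dKO means of 6.77 in Dex and 6.63 in EtOH were as high, so this probe does not check the genotype labels. The Cry1 probe was above background on 0 of 6 arrays. All arrays were from 1 time point, so a shift of clock phase and a change of level cannot be told apart.

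Transcription factors outside the clock were followed in several lists. Of 9 Krueppel-like factors 5 rose (3 with median scaling) and none fell, with Klf13 at 1.30 ± 0.18 and Klf5 at 1.61 ± 0.28 beside Klf9. Of 11 AP-1 and Egr factors 3 rose and 3 fell. Fos, a subunit of AP-1, rose by 1.57 ± 0.11 (adjusted p = 1.55e-06), while Egr2, Atf3 and Egr1 changed by -1.10, -0.82 and -0.46. Hox genes, which hold positional identity, fell in 13 of 16 measured genes of 33 listed and rose in none, with a median of -0.48. Hoxb5 stood at 9.61, 9.51 and 9.19 on the Dex arrays, against 10.62, 10.35 and 10.40 on the EtOH arrays, and changed by -1.02 ± 0.13 (adjusted p = 2.02e-04), Hoxc6 changed by -0.81 ± 0.09 and Hoxa4 by -1.197. Hoxb7, Hoxa13 and Hoxd4 were not called, at -0.21, -0.39 and -0.33. Of 22 patterning and mesenchymal factors 2 rose and 5 fell. The limb and mesenchyme factors Shox2, Osr2 and Prrx1 changed by -1.10, -0.93 and -0.51, and Sox5 rose by 1.38. Called shares were 55.6% of Krueppel-like, 54.5% of AP-1 and Egr, 81.2% of Hox and 31.8% of patterning genes, against 21.3% of all.

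Proliferation genes mostly fell or were not called. Of 26 measured genes of DNA replication and mitosis 13 fell and 1 rose, with a median of -0.42, and without Dex replicate 3 9 fell. Mcm5, a subunit of the replicative helicase, changed by -0.81 ± 0.10, Cenpa, the centromeric histone, by -0.79 ± 0.12 and Cdk1 by -0.61. Rrm2, a ribonucleotide reductase subunit, rose by 0.84 ± 0.12 (adjusted p = 3.31e-04), and Top2a and Mcm3 were not called. Cdkn1c, the CDK inhibitor p57, stood at 14.06, 13.96 and 14.003 on the Dex arrays, against 11.01, 11.02 and 10.93 on the EtOH arrays. It rose by 3.02 ± 0.10 (adjusted p = 4.23e-09), while Cdkn1a (p21) was not called and Cdkn2c (p18) changed by -0.66. Of 17 genes of the BCL2 family and of p53-driven death 3 rose, 1 fell and 13 were not called. The 23.5% called is near the 21.3% of all genes, while 53.8% of the replication and mitosis genes were called. The anti-apoptotic Bcl2l1 rose by 1.45 ± 0.13, the pro-apoptotic Pmaip1 by 1.40 ± 0.21, and Bcl2 changed by -1.09 ± 0.18 (adjusted p = 0.00113).

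Matrix genes changed selectively. Metalloproteinases and their inhibitors fell in 8 of 17 measured genes and rose in 1, with a median of -0.36. Mmp13, a collagenase, changed by -0.89 ± 0.13, Mmp3 by -0.61, Adamts4, an aggrecanase, by -1.14 ± 0.16, and the inhibitor Timp3 by -0.77, while Adam12 rose by 1.30 ± 0.12 (adjusted p = 1.50e-05). Of 15 collagens 4 rose and 1 fell, or 2 and 2 with median scaling. The risen genes included Col4a1 and Col4a5 of the basement membrane at 1.05 and 0.69, and the fibrillar Col3a1 changed by -0.48. The calls of Col4a5 and Col3a1 were lost under alternatives, with adjusted p-values of up to 0.0525 and 0.127. Among 32 further matrix genes 5 rose and 7 fell. Spon2, a secreted spondin, stood at 9.48, 9.33 and 9.55 on the Dex arrays, against 11.32, 11.62 and 11.41 on the EtOH arrays, and changed by -1.995 ± 0.13. The proteoglycan decorin (Dcn) changed by -1.28 ± 0.16, the hyaluronan synthase Has2 by -1.67 ± 0.19 and elastin (Eln) by -1.77, whereas the cross-linking enzyme Lox rose by 1.22 ± 0.11 (adjusted p = 1.35e-05). Lum, a proteoglycan at background on all Dex arrays, was at least 1.93-fold lower. It passed the filter only through the EtOH arrays, so it had to be lower in Dex if it differed. Against 21.3% of all genes, 52.9% of metalloproteinases and inhibitors, 33.3% of collagens and 37.5% of the further matrix genes were called.

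Secreted growth signals moved both ways. Of 17 measured Wnt genes 6 fell and none rose, among them Rspo2, Wnt2 at -0.70 ± 0.11 and Wnt5a at -0.67. In the insulin-like growth factor system Igf1 changed by -1.09 ± 0.11 and its binding proteins Igfbp4 and Igfbp5 by -1.002 ± 0.09 and -1.08 ± 0.11, while Igfbp6 and the signalling adaptor Irs2 rose by 1.43 ± 0.13 and 1.36 ± 0.23. The receptor Pdgfra rose by 1.08 ± 0.14 and the ligand Pdgfb changed by -1.13. Of 28 genes of the TGF-beta and BMP pathway 6 rose and 3 fell, with the coreceptor Tgfbr3 at 1.54 ± 0.14 and Bmp4 at -0.77. Of 15 smooth muscle contractile genes 5 rose and none fell. Myocd, the coactivator that drives that programme, was at least 2.46-fold higher. Myocd passed the filter only through the Dex arrays, so it had to be higher there if it differed. Myh11 rose by 0.79 ± 0.13, while Acta2 and Tagln were not called, at -0.01 and 0.03. Called shares were 35.3% of Wnt, 32.1% of TGF-beta and BMP and 33.3% of smooth muscle genes, against 21.3% of all.

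Metabolic genes held some of the sharpest contrasts. Cholesterol and fatty acid synthesis rose in 11 of 27 measured genes and fell in 1, with a median of 0.29. The transcription factor Srebf2 rose by 0.52 ± 0.09, its escort Scap by 0.65 and the desaturases Scd1 and Scd2 by 0.62 and 1.21. The 1 fall was that of Ch25h, whose product is known to restrain this pathway. Detoxification enzymes rose in 10 and fell in 9 of 26 measured genes. The aldehyde dehydrogenases Aldh1a1 and Aldh1a7 rose by 2.78 ± 0.13 and 2.99 ± 0.15, and Mgst2, a microsomal glutathione transferase, by 1.80 ± 0.11. Gstt1, another glutathione transferase, and Adh7, an alcohol dehydrogenase, changed by -1.28 and -1.27. Among ion transport genes Atp1b1, a subunit of the sodium pump, rose by 1.77 ± 0.11 and the water channel Aqp1 by 1.26 ± 0.14, beside Sgk1. Of 12 heat shock genes 4 rose and 1 fell, or 5 and 0 without Dex replicate 3 and 3 and 1 with median scaling, with the small chaperones Cryab at 1.11 ± 0.12 and Hspb1 at 1.02 ± 0.14, and the inducible Hspa1a changed by -0.97. Transporters for solutes rose in 6 and fell in 5 of 33 measured genes, and with median scaling in 3 and 7. Called shares were 44.4% of synthesis, 73.1% of detoxification, 41.7% of heat shock and 33.3% of transporter genes, against 21.3% of all. Without Dex replicate 3, 24 glucocorticoid-induced genes, 9 of cholesterol and fatty acid synthesis and 8 transporters were called higher. In the same setting 14 chemokines, 15 interferon-stimulated genes and 4 Wnt genes were called lower.

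**Figure D4:**
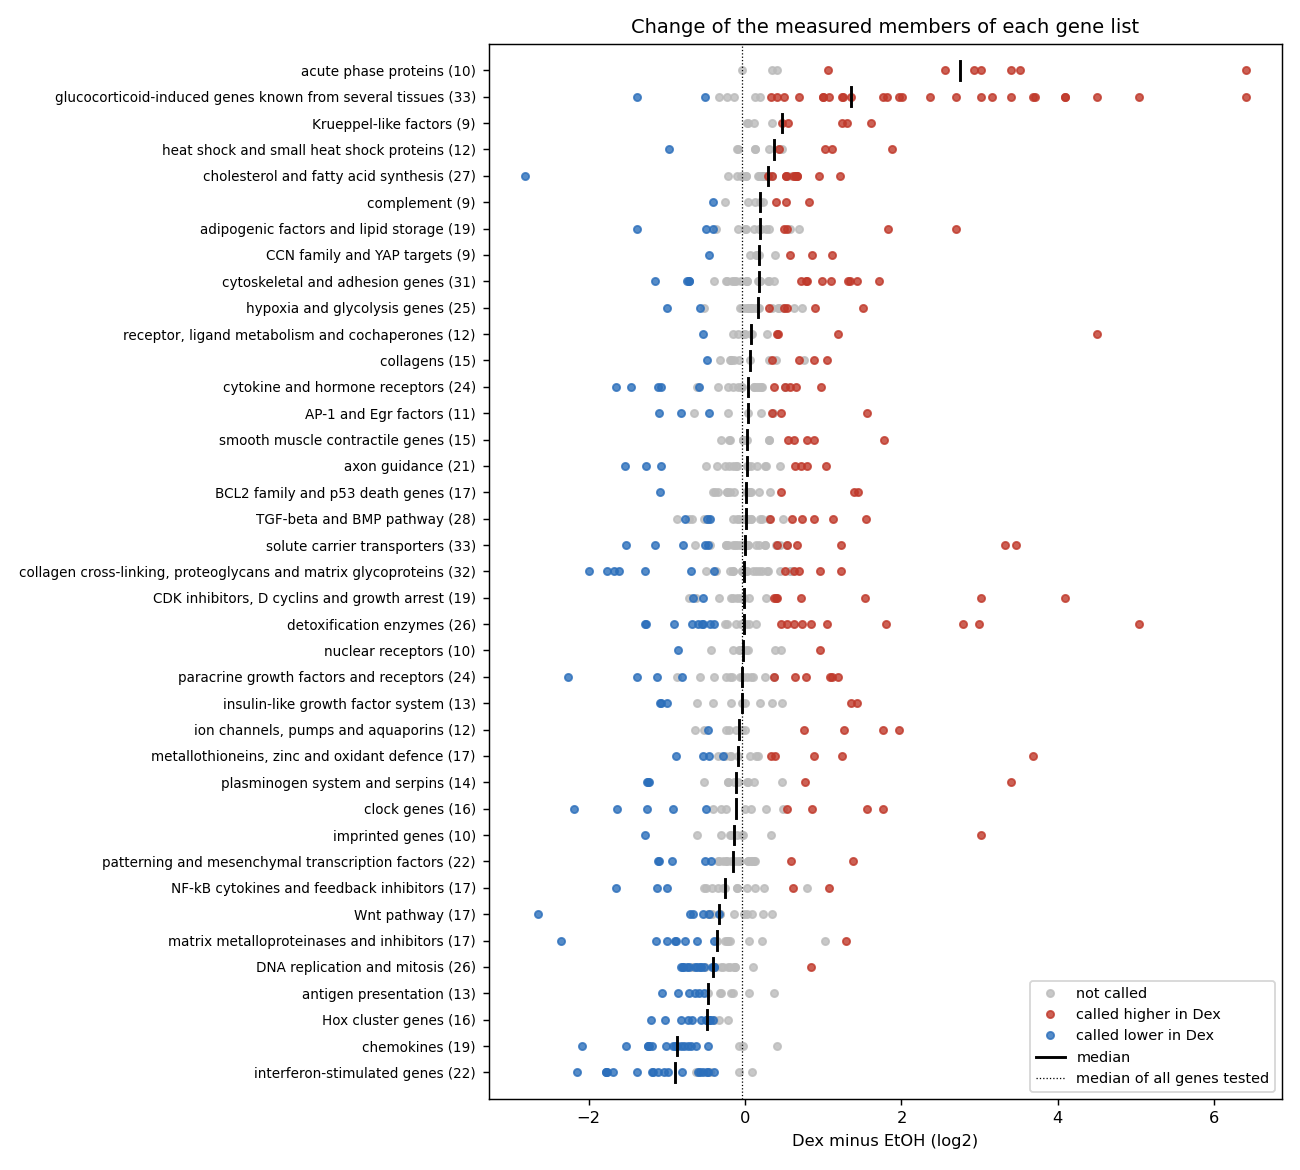
Change (Dex minus EtOH, log2, horizontal axis) of each measured member of the 39 gene lists with at least 9 measured genes, 1 row per list with the number measured in brackets, ordered by median. Red points were called higher in Dex, blue points called lower and grey points not called, black bars are medians and the dotted line is the median of all genes, -0.04. Acute phase proteins and glucocorticoid-induced genes lie at the top with medians of 2.74 and 1.36, interferon-stimulated genes and chemokines at the bottom with -0.90 and -0.87.

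The last question the design allows is whether the response differs where both cryptochromes are missing. Of the 740 genes called higher in control cells 624 also had a change above 0 in dKO cells, against 53.7% of all 8065 genes, and 376 were called higher there, against 8.78% of all. Of the 979 called lower, 789 had a change below 0 in dKO cells, against 46.3% of all, and 284 were called lower, against 6.25% of all. These genes were chosen on the control values, so a smaller change in dKO cells is partly given by the choice. The difference itself, the change in dKO cells less the change in control cells, was called for 210 genes, 2.6% of those tested, 118 of them higher and 92 lower. With median scaling it was called for 725 genes, and without 1 array, either Dex replicate 3 or any EtOH replicate, for 32 to 114.

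**Figure D5:**
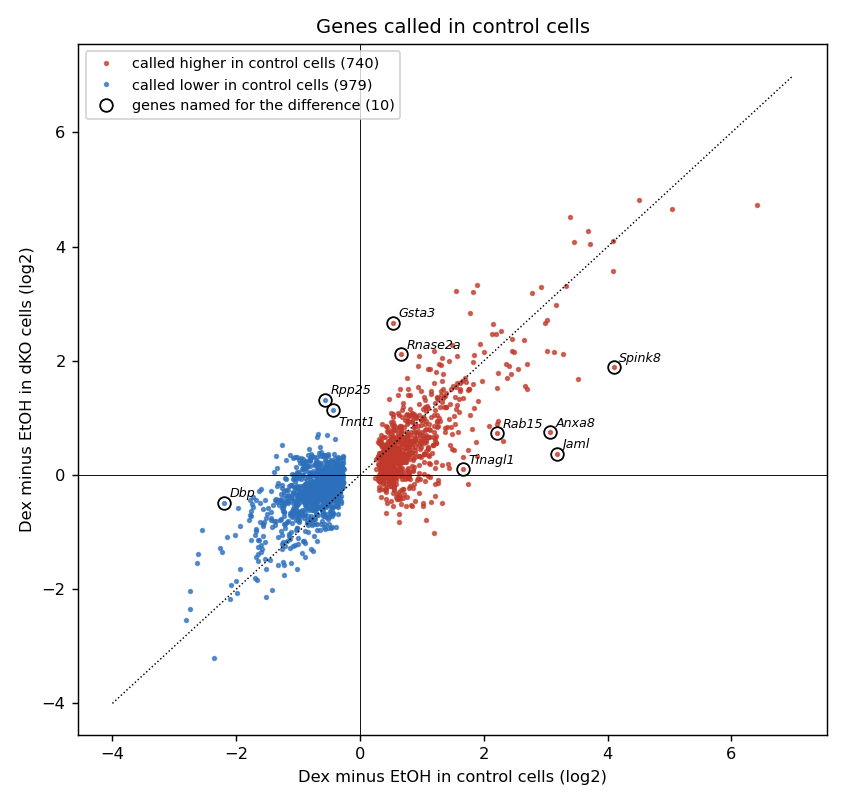
Change in dKO cells (Dex minus EtOH, log2, vertical axis) against the change in control cells (log2, horizontal axis) for the genes called in control cells, 1 point per gene, red for the 740 called higher and blue for the 979 called lower. The dotted line marks equal changes, and circles mark the 10 genes named for the difference. Of the red points 624 lie above 0 in dKO cells and of the blue points 789 lie below 0, with Spink8, Anxa8, Jaml, Rab15 and Tinagl1 below the line.

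Genes with the clearest smaller rise in dKO cells were Spink8, Anxa8, Jaml, Tinagl1 and Rab15. Anxa8, an annexin, stood in control cells at 12.50, 12.25 and 12.62 on the Dex arrays, against 9.34, 9.496 and 9.33 on the EtOH arrays. It changed by 0.75 ± 0.13 in dKO cells and by 3.07 ± 0.13 in control cells, a difference of -2.32 ± 0.18 (adjusted p = 1.47e-04). Jaml changed by 0.37 in dKO cells, where it was not called, and by 3.17 in control cells. Tinagl1 stood in control cells at 10.30, 10.07 and 9.97 on the Dex arrays, against 8.43, 8.43 and 8.49 on the EtOH arrays, and changed by 0.11 in dKO cells and 1.66 in control cells. Rab15, a small GTPase, changed by 0.73 in dKO cells and 2.21 in control cells. In the other direction Dbp changed by -0.49 ± 0.11 in dKO cells and by -2.19 ± 0.11 in control cells, a difference of 1.70 ± 0.15 (adjusted p = 3.52e-04). Gsta3, a glutathione transferase, rose by 2.67 in dKO cells and 0.53 in control cells, and Rnase2a, a secreted ribonuclease, by 2.11 and 0.67 in the same order. Rpp25 and Tnnt1 changed by 1.32 and 1.15 in dKO cells and by -0.56 and -0.44 in control cells, and the calls had opposite directions. The EtOH means of such genes also differed between the genotypes, in both directions. They were 10.10 in dKO cells and 9.39 in control cells for Anxa8, and 13.71 and 12.39 for Dbp. For Gsta3 they were 8.11 and 8.56 in the same order. Rpp25 and Rnase2a were at background on all dKO EtOH arrays, as Spink8 was, and Jaml on 5 of 6 dKO arrays, so these dKO changes are fitted values and not folds. The calls of Tnnt1 and Gsta3 in control cells were lost under at least 1 alternative each, Tnnt1 with an adjusted p of up to 0.101.

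Among the 33 glucocorticoid-induced genes the difference was called for 3 (Lcn2, Serpina3n and Arrdc2), against 2.6% of all genes. It was not called for Fkbp5, Tsc22d3, Sgk1 and Per1. Fkbp5 changed by 4.82 ± 0.15 in dKO cells and by 4.504 ± 0.15 in control cells (adjusted p of the difference 0.374), Tsc22d3 by 1.95 and 2.36 (0.141), Sgk1 by 1.65 and 1.96 (0.21) and Per1 by 1.505 and 1.76 (0.501). A p above the threshold does not show that these responses were equal, and their SEs were between 0.14 and 0.22. Lcn2, in contrast, changed by 4.74 ± 0.14 in dKO cells and 6.41 ± 0.14 in control cells, a difference of -1.67 ± 0.20 (adjusted p = 0.00153) in fitted values, since its control EtOH arrays were at background, and Serpina3n by 4.53 ± 0.15 and 3.39 ± 0.15, a difference of 1.13 ± 0.22 (adjusted p = 0.0292).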

How the data were processed

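Bead arrays measured RNA from 3 control Dex, 3 control EtOH and 6 dKO samples. The submitters' processing notes name GenomeStudio. The deposited intensities are mean bead signals per probe without normalization, and the deposited p-values compare each probe with its array's negative controls, per the file headers. A second deposited table, of normalized intensities, served only as an alternative (how it was made: not given in the sources used here).

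Background was removed by nec in limma 3.58.1 (R 4.3.3; offset 16), and values were quantile normalized over 12 arrays and logged to base 2. Where a gene had several probes the brightest on average stood for it. Of 23978 probes with 1 symbol, 23962 were updated by Entrez identifier, and 1719 had none. For 360 of 382 called genes with further probes, all probes moved in the same direction (94.2%). Limma fitted 1 mean per group, with 11.7 degrees of freedom (3.65 from the prior), and p-values were adjusted by Benjamini-Hochberg over all 8065 genes. Precision is limited by the number of arrays. The fit was tested on simulated data.

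The gene lists, written from general knowledge, and the genes followed were chosen with earlier results of these data known. Named genes are the 15 largest non-overlapping called changes in each direction, receptor and clock genes followed throughout, up to 4 members of a list with the smallest p, and the 5 smallest interaction p in each direction among called genes. Further list members are named to show how a list divides, after their values were seen. Motif searches carry no test. Alternatives concerned background, scaling, filter, probe choice, moderation, array weights, replicate block and left-out arrays.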

Additional observations from a re-analysis of the deposited data

Results flagged for a closer look

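Among genes called in control cells, the 10 with the clearest difference between the genotypes, each the change in dKO cells less the change in control cells from the limma interaction, are the results of this kind. The difference was above 0 for Gsta3 (2.14), Rpp25 (1.88), Dbp (1.70), Tnnt1 (1.59) and Rnase2a (1.44). It was below 0 for Jaml (-2.80), Anxa8 (-2.32), Spink8 (-2.21), Tinagl1 (-1.56) and Rab15 (-1.48). Adjusted p-values lay between 1.15e-04 for Spink8 and 0.00107 for Tnnt1. Spink8 and Jaml were at background on all control EtOH arrays. Spink8, Rpp25, Rnase2a and Jaml were at background on all dKO EtOH arrays, and Jaml on 2 of 3 dKO Dex arrays. For these 4 genes the differences are between fitted values and not folds. With the deposited normalized table the difference was 0.46 for Rnase2a, 0.77 for Rpp25, -1.30 for Spink8 and -1.50 for Jaml.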

How the results depend on the processing

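The 1719 calls stayed within 1.5 times under every alternative but array weights, which gave 2854. The rest gave 1233 to 2079, with 1233 to 1599 when single arrays were left out. The interaction, called for 210 genes, was less stable, with 725 calls under median scaling, of which 86.3% were higher in dKO cells, and 32 to 176 without single control arrays (114 without Dex replicate 3, and 47, 54 and 32 without EtOH replicates 1, 2 and 3). No dKO array was left out. Arrays with the same replicate number had residuals that correlated at -0.14, -0.13 and -0.10 between treatments, and those with different numbers at 0.011 to 0.106. Residuals from a group mean cancel within the group, so these values cannot decide whether the numbers pair the samples. With the number as a replicate block 1437 genes were called for Dex against EtOH and 37 for the interaction, and 36 with the block within genotype. The cause of these shifts was not tested. Of the 181 genes that the naming rule gave, 170 were called and 153 kept the call under every alternative, 17 lost it under at least 1, and none reversed. The 10 genes named for the interaction kept their calls under all alternatives run. Of 688 medians of gene lists under the alternatives, 574 moved by less than the spread between replicates. List counts and element shares without Dex replicate 3 or with median scaling were added after the data were seen. Low signals limit folds of genes at background to lower bounds, which hold for the main processing only.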
